A study of Mus musculus with 568 samples.

Results

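Nuclear genes of oxidative phosphorylation were followed through an in vitro model of the female mouse germ line. A gene was a member if its symbol starts with Nduf, Uqcr, Atp5 or Cox4 to Cox8 or is Sdha, Sdhb, Sdhc or Sdhd, and genes named as pseudogenes were left out. In the GENCODE annotation 98 genes match, of which 91 are among the 16335 genes of the bulk table, each with a mean normalized count above 10. Of these, Cox6c2 and Ndufb4c are annotated as processed pseudogenes and were set aside, which leaves 89 members. By role they are 29 accessory and 7 core subunits of complex I, 8 complex I assembly factors, 4 subunits of complex II, 8 of complex III, 15 of complex IV (Ndufa4 and its paralog Ndufa4l2 counted here), 16 of complex V, and 2 others, Cox7a2l and Atp5s. Cox4i2, Cox6a2, Cox8b, Cox8c, Ndufs6b, Ndufa11b and a second Ensembl entry named Atp5o are not among the genes of the bulk table used here. The single-cell table lists 89 genes by the same rule, of which 84 are also among the bulk members.

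The bulk data are 16 stranded total RNA libraries from 4 groups of 4 (ESCs, EpiLCs and PGCLCs sorted as XGFP+ or as XGFP-), with 29.8 to 46.5 M recovered reads on genes. All come from the XRep line, hybrid female ESCs (129S1/SvImJ and CAST/EiJ) in which every group carries a truncated Tsix on the mus X chromosome, so that this X is the one inactivated, a GFP reporter in Hprt on the mus X, a tdTomato reporter in Hprt on the cas X, rtTA in Rosa26 and doxycycline-responsive transgenes for Prdm1, Prdm14 and Tfap2c. ESCs were kept in serum with LIF. EpiLCs are epiblast-like cells made over 48 h and, after a split, 48 h more, and neither they nor ESCs were sorted. PGCLCs are primordial germ cell-like cells made from EpiLC aggregates with doxycycline at 1.5 µg/ml and sorted at day 5 for SSEA1, CD61 and XTomato, with GFP (XGFP+, 2 active X chromosomes) or without it (XGFP-, mus X inactive). The germ cell factors are thus driven by transgenes in the PGCLC groups, in place of cytokines. Single XTomato+ cells were taken from reconstituted ovaries (rOvaries), in which PGCLCs had been aggregated with cells of embryonic female gonads for 6 days. Constitutive cells came from XGFP+ PGCLCs and had kept GFP, and XGFPhigh, XGFPintermediate and XGFPlow cells came from XGFP- PGCLCs and were sorted by GFP.

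Oxidative phosphorylation makes ATP in the inner mitochondrial membrane. Complexes I and II pass electrons from NADH and succinate to ubiquinone, complexes III and IV pass them on through cytochrome c to oxygen, and complex V, the ATP synthase, uses the proton gradient that complexes I, III and IV build. Most subunits are encoded in the nucleus and imported, while a few hydrophobic ones are encoded in mitochondrial DNA. Some nuclear subunits exist as paralogs made in different tissues, and factors such as NRF1 and the ETS family member GABP are known to bind promoters of many of these genes. Pluripotent cells and germ cells are known to differ in how far they rely on glycolysis or respiration.

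Promoter sequences were looked up first, since the members are often described as sharing binding motifs. RefSeq entries (GRCm38.p6, 250 bases before to 50 bases after the start) matched 73 of the 89 members, with 78 promoters. The palindromic NRF1 motif, 10 bases with 1 free position, was searched on both strands and found in 20 of these (25.6%) against 4.603% of all 32851 promoters of that length. CCGGAAG, the ETS motif, was in 23.1% against 8.86%, and AAGATGG, a core of the YY1 motif, in 14.1% against 6.34%, each on both strands. NRF1 matches were in 46.2% of the genes of complex V with an entry and in 8.33% of those of complex IV. These shares are a description of letters and not of binding. The 100 bases before the RefSeq start follow for members whose values are given in the text, with the NRF1 and ETS matches in capitals. Sdha (chr13:74350241-74350340, minus strand) has 3 NRF1 matches in its window, Ndufb4 (chr16:37654369-37654468, minus strand) has 2, Sdhd (chr9:50603850-50603949, minus strand) and Atp5k (chr5:108434400-108434499, minus strand) have 1 each, and Cox6a1 (chr5:115348959-115349058, minus strand) has an ETS match, as has Sdhd. Cox7a1 (chr7:30184071-30184170, plus strand) and Cox7b (chrX:106015600-106015699, plus strand), which had some of the largest differences between groups, have none of these letters in the window. The GENCODE starts of Sdha, Ndufb4, Atp5k, Cox6a1 and Cox7a1 lie inside these windows.
Sdha: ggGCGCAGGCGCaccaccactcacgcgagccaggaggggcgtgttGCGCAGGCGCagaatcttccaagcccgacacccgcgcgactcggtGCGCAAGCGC
Ndufb4: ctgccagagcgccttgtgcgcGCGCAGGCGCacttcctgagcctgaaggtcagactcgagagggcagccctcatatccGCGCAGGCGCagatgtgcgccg
Sdhd: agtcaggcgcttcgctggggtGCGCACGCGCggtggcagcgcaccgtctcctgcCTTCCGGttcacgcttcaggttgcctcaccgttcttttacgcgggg
Atp5k: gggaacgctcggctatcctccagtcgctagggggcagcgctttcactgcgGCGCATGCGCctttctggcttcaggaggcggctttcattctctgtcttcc
Cox6a1: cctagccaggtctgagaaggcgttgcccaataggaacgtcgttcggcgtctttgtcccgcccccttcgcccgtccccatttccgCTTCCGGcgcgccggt
Cox7a1: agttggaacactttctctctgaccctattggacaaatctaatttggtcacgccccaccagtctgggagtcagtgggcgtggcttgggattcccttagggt
Cox7b: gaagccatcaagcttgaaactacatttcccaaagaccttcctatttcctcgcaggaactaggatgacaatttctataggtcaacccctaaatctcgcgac

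The summed level of the 89 members was highest in ESCs and lowest in XGFP- PGCLCs. In CPM, the normalized counts scaled to 1000000 per library, the sum was 10809 ± 278 in ESCs, 9614 ± 306 in EpiLCs, 8562 ± 342 in XGFP+ PGCLCs and 7926 ± 285 in XGFP- PGCLCs (mean ± SD, n = 4 each). Libraries ranged from 10558 to 11103 in ESCs, from 9411 to 10067 in EpiLCs, from 8143 to 8975 in XGFP+ PGCLCs and from 7611 to 8173 in XGFP- PGCLCs, so that only the ranges of both PGCLC groups overlapped. Relative to the ESC mean these sums were 0.889, 0.792 and 0.733. Transcripts of mitochondrial DNA took 10.7 to 13.3% of all normalized counts in ESCs, 10.7 to 12.02% in EpiLCs, 15.1 to 17.4% in XGFP+ PGCLCs and 15.99 to 17.4% in XGFP- PGCLCs, and they lower the share left for other genes. With these genes out of the total, the ratios to ESCs were 0.879, 0.826 and 0.771. In bulk samples, fewer cells of one type and less RNA per cell cannot be told apart.

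The complexes differed in how far their sums lay apart. Complex V, the class with the largest sum, went from 4782 ± 32.5 CPM in ESCs to 4414 ± 122.6 in EpiLCs, 3726 ± 175 in XGFP+ PGCLCs and 3259 ± 70.3 in XGFP- PGCLCs, with no overlap between any of these groups. Complex IV stood at 2118 ± 102.5, 1660 ± 92.96, 1624 ± 70.2 and 1470 ± 95.5 in the same order, where EpiLCs overlapped XGFP+ PGCLCs and XGFP+ overlapped XGFP- PGCLCs. Complex III had 967 ± 30.5, 819 ± 20.1, 737 ± 32.4 and 683 ± 28.8, and complex II 521 ± 12.6, 441 ± 9.22, 410 ± 16.7 and 399 ± 14.8. The 7 core subunits of complex I summed to 688 ± 10.8, 648 ± 16.02, 549 ± 24.7 and 534 ± 13.9. The 29 accessory subunits of complex I summed to 1490 ± 105, 1376 ± 51.3, 1278 ± 56.8 and 1309 ± 80.9, where EpiLCs overlapped ESCs and XGFP- PGCLCs, and both PGCLC groups overlapped each other. The 8 complex I assembly factors were lowest in XGFP+ PGCLCs (140 ± 2.79) and highest in EpiLCs (164 ± 10.0), with 147 ± 7.73 in ESCs and 158 ± 1.73 in XGFP- PGCLCs.

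**Figure D1:**
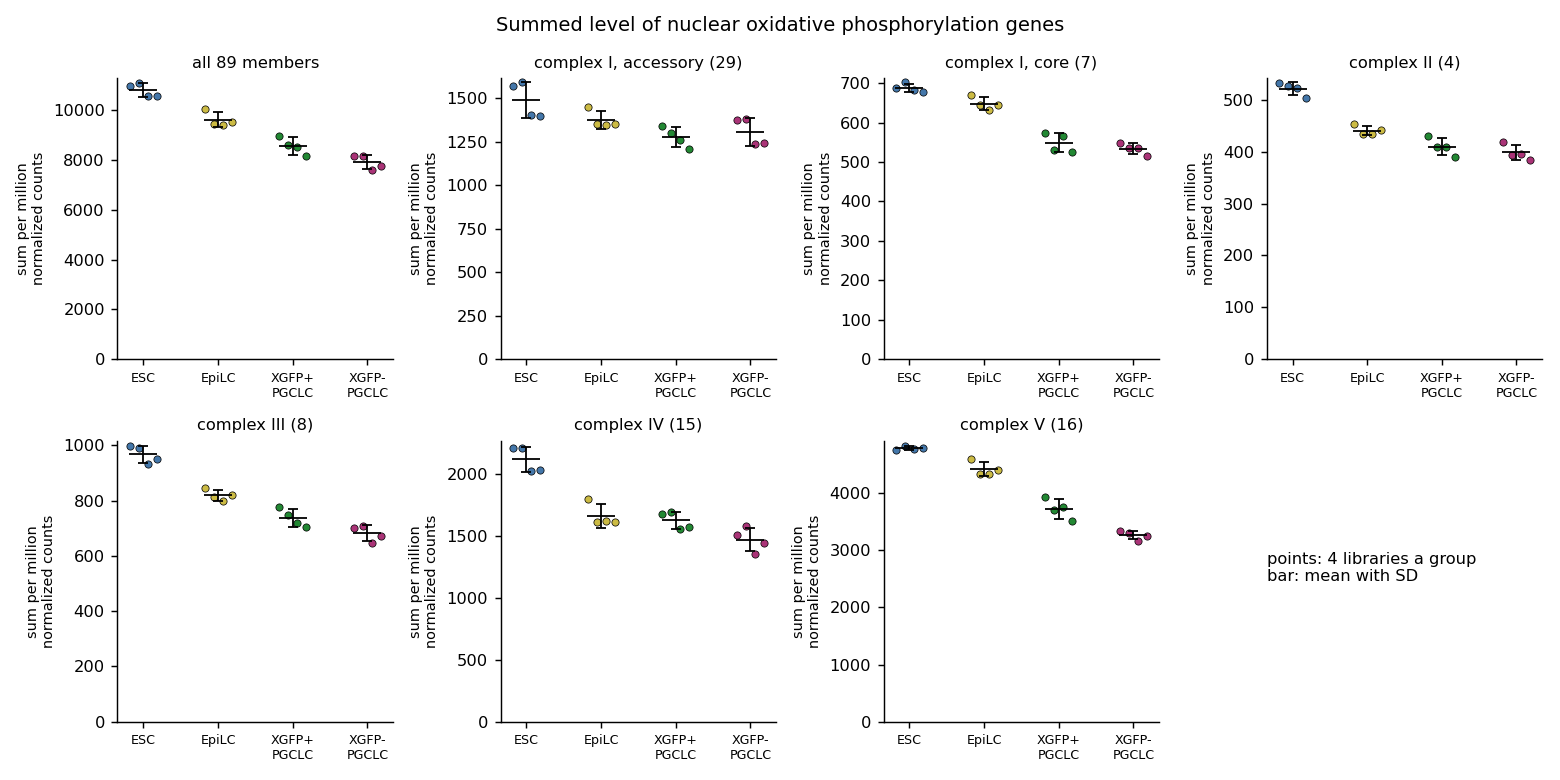
Summed level of the 89 members and of 6 classes in bulk libraries. The vertical axis is the sum in CPM, points are the 4 libraries of a group and bars give mean and SD. Complex V goes from 4782 in ESCs to 3259 in XGFP- PGCLCs without overlap between groups, whereas the accessory subunits of complex I overlap between EpiLCs and ESCs, between EpiLCs and XGFP- PGCLCs and between both PGCLC groups.

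Levels can be compared between members per kilobase of exon. Over all 16 libraries the mean normalized count per kilobase ran from 36.3 to 14340, with a median of 1409. Atp5b, the catalytic beta subunit of the ATP synthase, was the highest (14340), followed by Atp5a1, its alpha subunit (11768), and the complex IV subunits Cox4i1 (8760), Cox8a (8234) and Cox7b (6451). Among the other complexes, Uqcrb led complex III (5208), Sdhd complex II (3117) and Ndufb11 complex I (2982).

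Single members were tested in all 16 libraries together with limma on log2(normalized count + 1), and a gene was called at a Benjamini-Hochberg adjusted p below 0.001 over 16281 genes. From ESCs to EpiLCs 3 of the 89 members rose, where 24.9% of all genes were called higher, and 28 fell, where 22.9% of all genes were called lower. The median log2 fold change was −0.18 for members and 0.01 for all genes, and 66 members had a value below 0. From EpiLCs to XGFP+ PGCLCs 12 members rose (27.8% of all genes) and 30 fell (29.5% of all genes), with a median of −0.13 against 0.00. From EpiLCs to XGFP- PGCLCs 12 rose (29.9% of all genes) and 38 fell (31.9% of all genes), with a median of −0.13 against −0.03. Between the PGCLC groups, 3 members were higher in XGFP- cells (11.3% of all genes) and 9 lower (12.5% of all genes), with medians of −0.02 and 0.01. In that comparison 1 member was called higher without XGFP+ library 1, 3 or 4 or XGFP- library 1 or 2, and 5 were called lower in a fit of the compared groups alone. The ranges of the groups did not overlap for 50 members in EpiLCs against ESCs (60.7% of all genes), 58 in XGFP+ PGCLCs against EpiLCs (69.9% of all genes), 62 in XGFP- PGCLCs against EpiLCs (73.5% of all genes) and 27 between the PGCLC groups (45.7% of all genes).

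Most called members changed by less than 1 on the log2 scale. The median absolute log2 fold change of called members was 0.43, 0.50, 0.50 and 0.33 in the 4 comparisons. Past 1 on the log2 scale went 2, 3, 5 and 1 called members. These sizes were not taken over all genes, so they are not set against them. Both PGCLC comparisons use the same 4 EpiLC libraries, so their calls are not independent. In them 8 members were called higher (22.9% of all genes) and 27 lower (24.5% of all genes) in both PGCLC groups, and Cox7b was called in opposite directions (0.553% of all genes). Of the 89 members, 64 were called in at least 1 comparison and 25 in none, where 80.4% of all genes were called in at least 1. The 4 libraries of a group are numbered in the labels without naming a clone, and the study's text describes 2 clones with technical replicates, so that the p values measure only the spread between these libraries and may be too small.

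**Figure D2:**
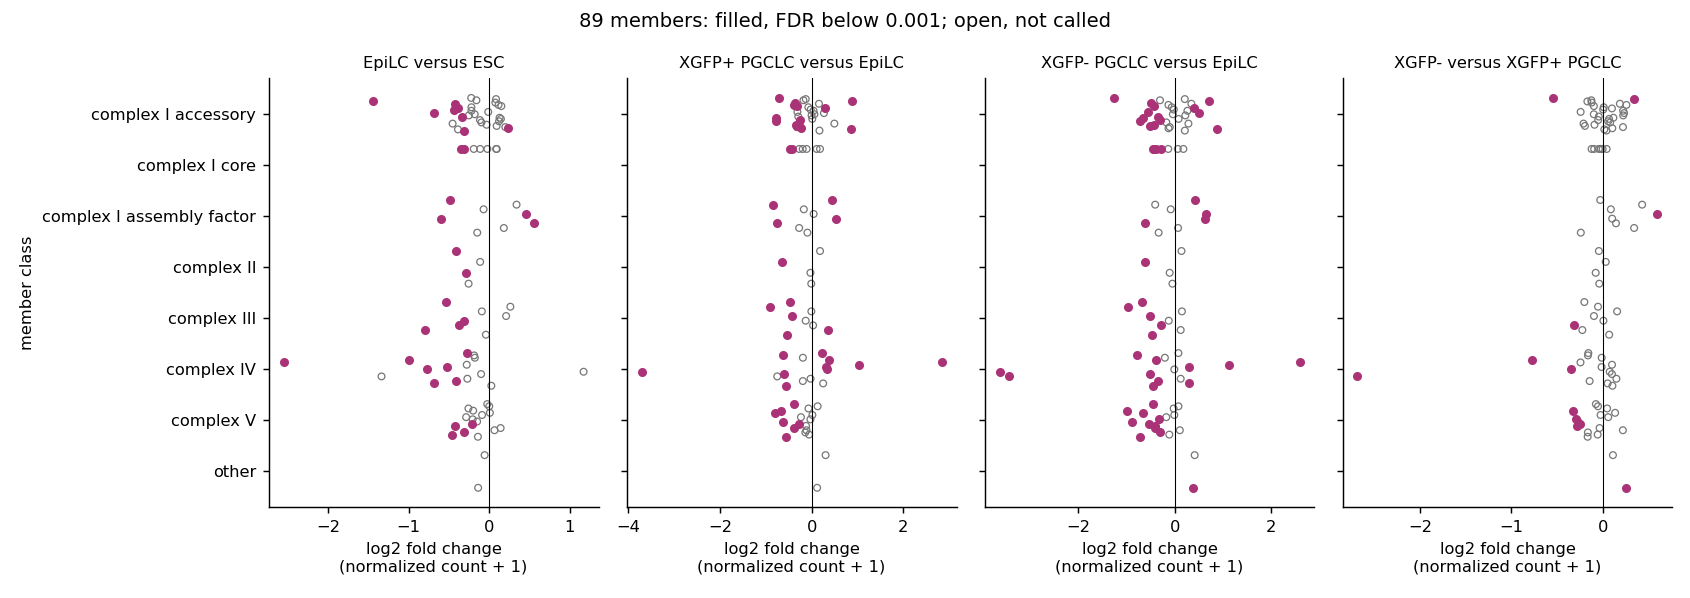
Log2 fold changes of the 89 members by class in the 4 bulk comparisons. Each point is a member, filled where limma called it at an adjusted p below 0.001 and open otherwise, and the horizontal axis is the difference in log2(normalized count + 1). In complex V the called members lie left of 0 in every panel, whereas complex IV holds called members on both sides in both PGCLC panels.

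Complex I was represented by 44 members. Of its 29 accessory subunits 1 rose and 7 fell from ESCs to EpiLCs, 3 rose and 10 fell in XGFP+ PGCLCs against EpiLCs, and 4 rose and 10 fell in XGFP- PGCLCs. None of the 7 core subunits was called higher in any comparison, and 2, 2, 4 and 0 were called lower. Beside these counts, 24.9%, 27.8%, 29.9% and 11.3% of all genes were called higher in the 4 comparisons. Called lower were 22.9%, 29.5%, 31.9% and 12.5% of all genes. Ndufb4, an accessory subunit of the membrane arm, had 1703, 1691, 1352 and 1491 normalized counts in ESCs, 642, 509, 546 and 598 in EpiLCs, 1099, 1114, 967 and 1015 in XGFP+ PGCLCs and 1005, 939, 839 and 951 in XGFP- PGCLCs. ESCs were highest and EpiLCs lowest, and the PGCLC groups lay between without overlap with either. The log2 fold change was −1.44 ± 0.09 (SE, limma adjusted p = 6.9e-11) in EpiLCs against ESCs, 0.87 ± 0.09 (SE, limma adjusted p = 6.11e-08) in XGFP+ PGCLCs and 0.70 ± 0.09 (SE, limma adjusted p = 8.79e-07) in XGFP- PGCLCs against EpiLCs.

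Ndufa6, an accessory subunit that binds the mitochondrial acyl carrier protein, was highest in PGCLCs. It had 2443, 2445, 1934 and 1996 normalized counts in ESCs, 2091, 1623, 1455 and 1586 in EpiLCs, 3323, 3048, 2914 and 2919.7 in XGFP+ cells and 3158, 3298, 2875 and 3019 in XGFP- PGCLCs. All 8 PGCLC libraries were above all 8 ESC and EpiLC libraries. Against EpiLCs the change was 0.86 ± 0.10 (SE, limma adjusted p = 2.69e-07) in XGFP+ cells and 0.88 ± 0.10 (SE, limma adjusted p = 1.73e-07) in XGFP- PGCLCs. Ndufa5, an accessory subunit of the peripheral arm, went the other way, from 1139.9 ± 100.1 in ESCs and 1236 ± 48.9 in EpiLCs to 718 ± 66.9 in XGFP+ cells and 748 ± 78.4 in XGFP- PGCLCs, with log2 fold changes against EpiLCs of −0.79 and −0.73. Ndufs1, a core subunit that carries iron-sulfur clusters, fell from 6944 ± 274 in EpiLCs to 5151 ± 143.6 and 5069.7 ± 200.5 in XGFP+ cells and XGFP- PGCLCs, by 0.43 and 0.45 on the log2 scale.

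Some calls of complex I were lost when 1 library was left out. Ndufab1, the acyl carrier protein itself, was the only accessory subunit called higher in EpiLCs than in ESCs (2080.2 ± 53.99 against 1778 ± 45.4, log2 fold change 0.23, limma adjusted p = 0.00033). That call was lost without ESC library 3 or EpiLC library 1 or 3, with an adjusted p of up to 0.00179, and the lower value in XGFP+ PGCLCs was lost without EpiLC library 3 or XGFP+ library 1, with an adjusted p of up to 0.00115. Ndufs4, an accessory subunit of the NADH-binding part, was above its XGFP+ level in XGFP- PGCLCs (3239 ± 223 against 2557 ± 79.6, log2 fold change 0.34, limma adjusted p = 0.000447). Leaving out any one of 6 of the 8 libraries, that is XGFP+ library 1, 3 or 4 or XGFP- library 1, 2 or 4, lost this call, with an adjusted p of up to 0.00255.

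Assembly factors of complex I, which help build the complex without staying in it, moved in both directions. Ndufaf6 had 533, 630.4, 471 and 519 normalized counts in ESCs, 751, 668, 727 and 802 in EpiLCs, 768, 739.7, 778 and 745 in XGFP+ cells and 1139, 1177, 1091 and 1188 in XGFP- PGCLCs. XGFP- PGCLCs were above every other library, and ESCs below. The difference between XGFP- and XGFP+ PGCLCs was 0.60 ± 0.08 (SE, limma adjusted p = 8.24e-06), the largest increase of any member in that comparison. Ndufaf4 was highest in EpiLCs (1889, 2293, 2069.6 and 2765), with 1521 ± 121.8 in ESCs, 1322 ± 24.6 in XGFP+ cells and 1462 ± 26.8 in XGFP- PGCLCs, which gave log2 fold changes of 0.56, −0.75 and −0.61 for EpiLCs against ESCs and for XGFP+ and XGFP- PGCLCs against EpiLCs, all called. Ndufaf1 was lowest in EpiLCs (695 ± 31.1, against 974 ± 54.4 in ESCs, 945 ± 74.9 in XGFP+ cells and 926 ± 49.3 in XGFP- PGCLCs). Ndufaf8 fell from 316 ± 42.4 in EpiLCs to 176 ± 12.01 in XGFP+ PGCLCs (−0.84 on the log2 scale). In XGFP- PGCLCs it was at 238 ± 18.6, which was not called against EpiLCs (limma adjusted p = 0.00165).

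Complex II, the succinate dehydrogenase shared with the citric acid cycle, had subunits that passed the threshold in different comparisons, and whether these subunits differ from each other was not tested. Sdha, the flavoprotein, had 8906, 8611, 8943 and 8665 normalized counts in ESCs, 6524, 6507, 6315 and 6999 in EpiLCs, 7788, 7299, 7496 and 7311 in XGFP+ cells and 7528, 6936, 7403 and 7167 in XGFP- PGCLCs. All ESC libraries were above the rest, EpiLCs had the lowest mean and overlapped XGFP- PGCLCs, and Sdha fell by 0.42 on the log2 scale from ESCs to EpiLCs (limma adjusted p = 1.66e-07). Sdhd, a membrane anchor, had 5304, 4460.3, 4991 and 4950.3 in ESCs, 4589, 4332, 4529.6 and 4735 in EpiLCs, 3093, 2966, 2810.3 and 2752 in XGFP+ cells and 3169, 2895, 2824 and 2999 in XGFP- PGCLCs. ESCs and EpiLCs overlapped, and all 8 PGCLC libraries were below them, with −0.65 ± 0.06 (SE, limma adjusted p = 1.13e-08) in XGFP+ cells and −0.61 ± 0.06 (SE, limma adjusted p = 1.85e-08) in XGFP- PGCLCs against EpiLCs. Sdhc, the other anchor, was called in EpiLCs against ESCs alone (2853 ± 131.2 to 2327 ± 106.7, −0.29 on the log2 scale). Sdhb, the iron-sulfur subunit, passed the threshold in none of the comparisons, with means of 3418 ± 260.1, 2858 ± 183, 2841 ± 213 and 2766 ± 180.1 in ESCs, EpiLCs, XGFP+ and XGFP- PGCLCs and a lowest limma adjusted p of 0.00319 in EpiLCs against ESCs.

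In complex III, 0, 1, 0 and 0 of 8 members rose (24.9%, 27.8%, 29.9% and 11.3% of all genes) in the 4 comparisons. In the same order 4, 4, 5 and 1 fell (22.9%, 29.5%, 31.9% and 12.5% of all genes). Uqcrq, a small subunit of the membrane part, had 1051, 1119, 923 and 1131 normalized counts in ESCs, 1479, 1251, 1096 and 1250.2 in EpiLCs, 706, 612, 661 and 710.2 in XGFP+ cells and 658, 695, 584 and 659.6 in XGFP- PGCLCs. Every PGCLC library was below every ESC and EpiLC library. Against EpiLCs the change was −0.91 ± 0.09 (SE, limma adjusted p = 4.56e-08) and −0.96 ± 0.09 (SE, limma adjusted p = 1.71e-08) in XGFP+ cells and XGFP- PGCLCs. Uqcrb, which takes part in ubiquinone binding, fell from 6245 ± 554 in ESCs to 3567 ± 108.9 in EpiLCs (−0.80 on the log2 scale) and rose to 4542 ± 221 in XGFP+ PGCLCs (0.35). In XGFP- PGCLCs it stood at 3895 ± 289 and was not called against EpiLCs (limma adjusted p = 0.0902). Uqcrfs1, the Rieske iron-sulfur protein, fell from 4292 ± 242 in EpiLCs to 3203 ± 136.8 and 2995 ± 74.99, by 0.42 and 0.52 on the log2 scale.

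Complex IV, cytochrome c oxidase, held the members with the largest changes, and several of its subunits come as pairs of paralogs. Cox7a1, the isoform known from heart and skeletal muscle, had 282, 261, 243 and 210.4 normalized counts in ESCs, 37.2, 45.5, 40.7 and 42.5 in EpiLCs, 285, 347, 262 and 318 in XGFP+ cells and 269.5, 292, 212 and 251 in XGFP- PGCLCs. EpiLCs stood below all other libraries, and the other 3 groups overlapped each other. The log2 fold change was −2.55 ± 0.13 (SE, limma adjusted p = 4.24e-12) in EpiLCs against ESCs, 2.83 ± 0.13 (SE, limma adjusted p = 9.18e-13) in XGFP+ PGCLCs and 2.59 ± 0.13 (SE, limma adjusted p = 2.07e-12) in XGFP- PGCLCs against EpiLCs. Its ubiquitous paralog Cox7a2 was at 5179 ± 488, 4276 ± 144.8, 4201 ± 33.9 and 4671 ± 385 in the same order and was called in no comparison.

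Cox6b1 and Cox6b2 are the general and the testis-type form of one subunit. Cox6b2 had 557, 754, 475 and 488 normalized counts in ESCs, 451, 559, 386 and 460.2 in EpiLCs, 930.4, 905, 1036 and 902 in XGFP+ cells and 1095, 1009.9, 859.8 and 1097 in XGFP- PGCLCs. All PGCLC libraries were above all others. The change against EpiLCs was 1.03 ± 0.13 (SE, limma adjusted p = 1.13e-06) in XGFP+ cells and 1.13 ± 0.13 (SE, limma adjusted p = 2.84e-07) in XGFP- PGCLCs. Cox6b1 had 5349 ± 374 in ESCs, 3329 ± 231 in EpiLCs, 3953 ± 84.1 in XGFP+ cells and 4108 ± 260.0 in XGFP- PGCLCs. It fell by 0.68 on the log2 scale in EpiLCs, and its increase in XGFP- PGCLCs (0.30, limma adjusted p = 0.000188) was lost without EpiLC library 2 or 3 or XGFP- library 1 or 2, with an adjusted p of up to 0.00114. In XGFP+ PGCLCs the adjusted p was 0.00121.

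The paralogs Cox7b2 and Ndufa4l2 were near the lower end of the table. Cox7b2, a paralog of the X-linked Cox7b, had 79.7, 97.8, 29.4 and 79.2 normalized counts in ESCs, 15.8, 32.6, 31.8 and 24.7 in EpiLCs, 9.98, 20.03, 7.66 and 28.7 in XGFP+ cells and 0.867, 5.08, 0 and 2.06 in XGFP- PGCLCs. XGFP- PGCLCs were below every other library. The fitted log2 fold change was −3.44 ± 0.51 (SE, limma adjusted p = 6.1e-06) against EpiLCs and −2.68 ± 0.51 (SE, limma adjusted p = 0.000289) against XGFP+ PGCLCs, values that depend on the added count at such levels. The second call was lost without XGFP+ library 2 or 4 or XGFP- library 1 or 3 (adjusted p of up to 0.00156) and in edgeR. Ndufa4l2, known as a hypoxia-induced paralog of Ndufa4, had 121.98, 183, 59.6 and 155 in EpiLCs, 14.5, 26.3, 0 and 16.1 in XGFP+ cells and 16.5, 13.2, 1.92 and 11.3 in XGFP- PGCLCs, with 60.6, 162, 37.9 and 20.4 in ESCs. Both calls against EpiLCs (−3.71 and −3.64 on the log2 scale) were lost when EpiLC library 1, 2 or 4 was left out, the first also without XGFP+ library 3 and the second also without XGFP- library 2, 3 or 4, with adjusted p values of up to 0.00257 and 0.00366. Ndufa4 itself fell from 4885 ± 123.9 in EpiLCs to 3165 ± 123.8 and 2834 ± 223, by 0.63 and 0.79 on the log2 scale.

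Other subunits of complex IV moved in opposite directions between the same groups. Cox8a, a small subunit, had 6651, 6667, 6068 and 6079 normalized counts in ESCs, 6726, 5444, 5745 and 5864 in EpiLCs, 3812, 4095, 3725 and 3944 in XGFP+ cells and 4339.9, 4485, 3788 and 4115 in XGFP- PGCLCs. It was lower in all PGCLC libraries, with changes against EpiLCs of −0.61 ± 0.07 (SE, limma adjusted p = 1.55e-07) and −0.51 ± 0.07 (SE, limma adjusted p = 1.4e-06). Cox5a, which lies at the matrix side of the complex, had 6624, 6693, 6689.6 and 6659 in ESCs, 4250.3, 3797, 3792 and 3749 in EpiLCs, 5140.0, 5296, 4549 and 4691 in XGFP+ cells and 4133, 4025, 3536 and 3819.8 in XGFP- PGCLCs. It fell by 0.78 on the log2 scale in EpiLCs, rose by 0.33 in XGFP+ PGCLCs, and was lower in XGFP- than in XGFP+ PGCLCs (−0.34 ± 0.06 (SE, limma adjusted p = 0.000143)). Cox6c fell from ESCs to EpiLCs and from EpiLCs to XGFP- PGCLCs (7695 ± 648, 5758 ± 289.5 and 4566 ± 349 in ESCs, EpiLCs and XGFP- PGCLCs, against 5033 ± 117.9 in XGFP+ PGCLCs).

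Cox4i1, the subunit that binds ATP as a regulator of the complex, and Cox6a1 had their lowest means in EpiLCs. Cox4i1 had 14831 ± 468 in ESCs, 12213 ± 467 in EpiLCs, 14374 ± 645 in XGFP+ cells and 12891 ± 646 in XGFP- PGCLCs, and Cox6a1 had 4312 ± 196, 2995 ± 299, 3723 ± 78.6 and 3696 ± 246. The decrease from ESCs was kept in all fits that left out 1 library, at −0.28 and −0.53 on the log2 scale. The later increases were not. That of Cox4i1 in XGFP+ PGCLCs (0.23) was lost without EpiLC library 2 or 3 or XGFP+ library 1 or 2 (adjusted p of up to 0.00175). Those of Cox6a1 in XGFP+ (0.32) and XGFP- PGCLCs (0.31) were lost without EpiLC library 2 or 3 or XGFP+ library 2, and without EpiLC library 2 or 3 or XGFP- library 1 or 2, with adjusted p values of up to 0.00136 and 0.00185. Cox7a2l, which joins complexes III and IV into supercomplexes and is not a subunit, was highest in XGFP- PGCLCs (4351, 4143, 4187 and 3935, against 3526, 3449, 3553 and 3370.2 in XGFP+ PGCLCs). Its call between the PGCLC groups (0.26 on the log2 scale, limma adjusted p = 0.000941) was kept only when XGFP- library 4 was the one left out, with an adjusted p of up to 0.00489 otherwise, whereas the increase over EpiLCs (0.38) was kept in all of these fits.

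**Figure D3:**
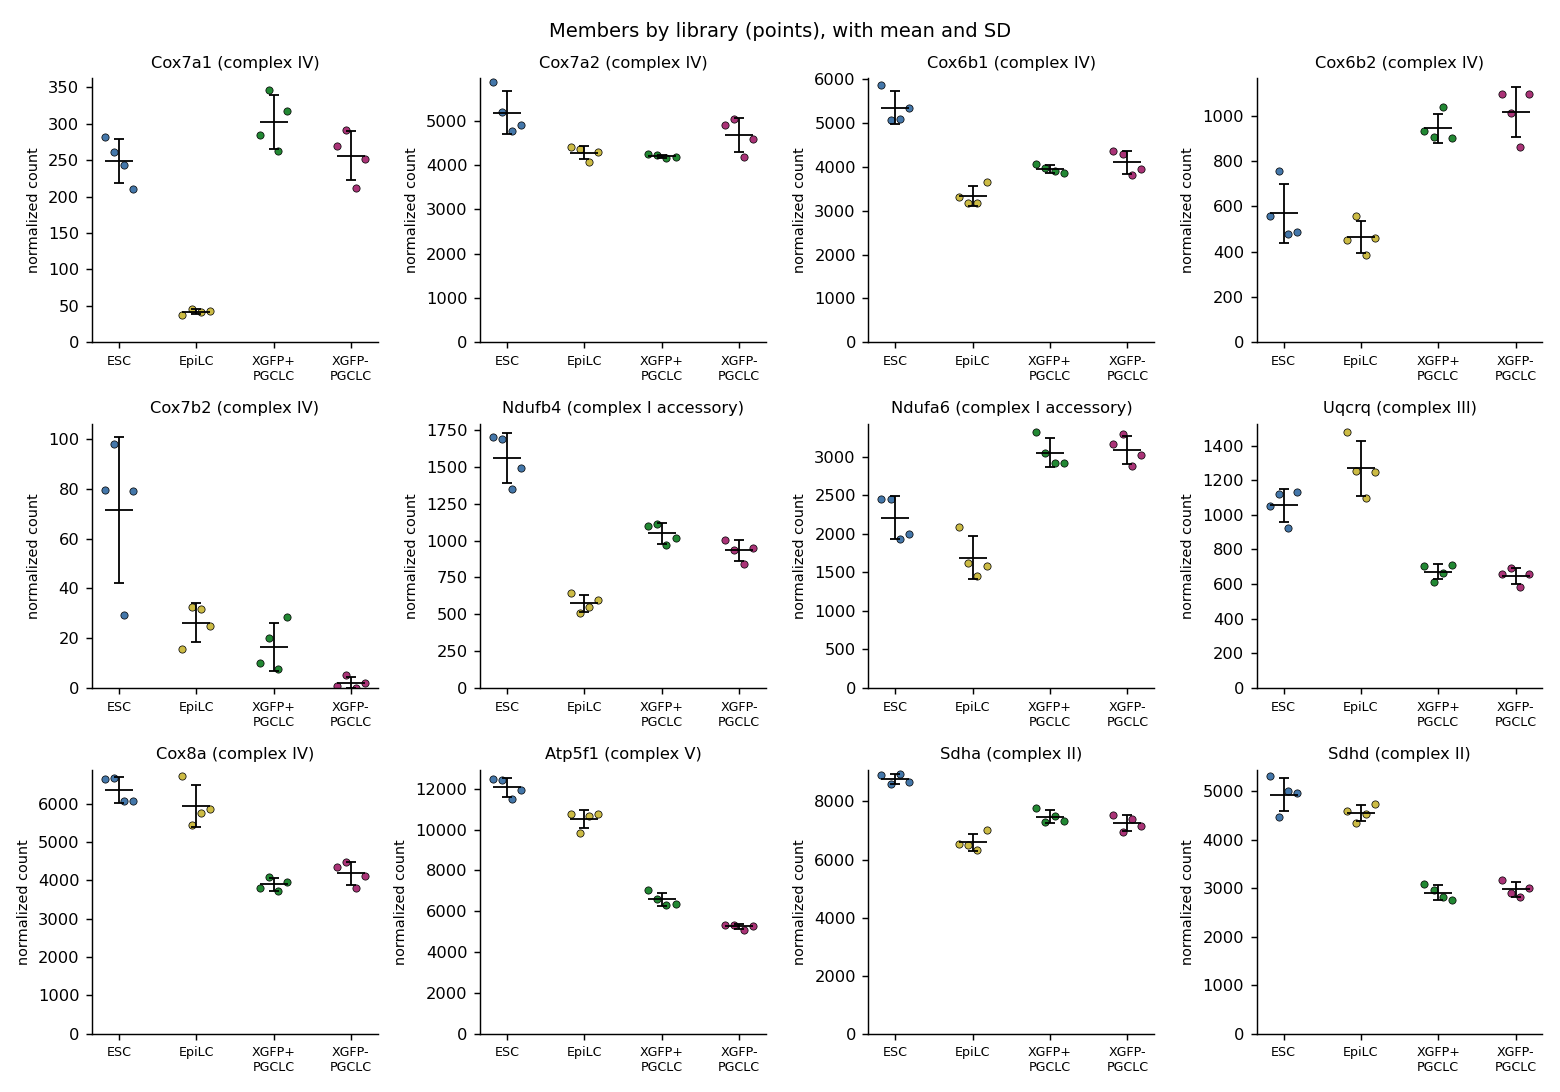
Normalized counts of 12 members in each bulk library. Points are libraries, bars are mean and SD of 4, and each panel has its own vertical axis from 0. Cox7a1 and Ndufb4 are lowest in EpiLCs, Cox6b2 and Ndufa6 are highest in both PGCLC groups, and Uqcrq, Cox8a, Atp5f1 and Sdhd are lowest there.

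The called changes of complex V were decreases, with 0 of 16 members called higher in any comparison and 4, 7, 10 and 4 called lower in EpiLCs against ESCs, XGFP+ and XGFP- PGCLCs against EpiLCs and XGFP- against XGFP+ PGCLCs. Beside these counts, 24.9%, 27.8%, 29.9% and 11.3% of all genes were called higher and 22.9%, 29.5%, 31.9% and 12.5% lower. Atp5f1, the b subunit of the stalk that holds the catalytic head, had 12465, 12431, 11489.7 and 11921 normalized counts in ESCs, 10743, 9851, 10682 and 10772 in EpiLCs, 7037, 6606, 6288 and 6372 in XGFP+ cells and 5322, 5323, 5077 and 5298 in XGFP- PGCLCs. The 4 groups did not overlap and followed each other downwards in this order. The change was −0.68 ± 0.05 (SE, limma adjusted p = 4.15e-10) in XGFP+ cells and −0.999 ± 0.05 (SE, limma adjusted p = 1.3e-12) in XGFP- PGCLCs against EpiLCs, and −0.32 ± 0.05 (SE, limma adjusted p = 2.77e-05) between the PGCLC groups. Atp5k, the e subunit, was lower in PGCLCs too, with 2696 ± 184 in ESCs, 2716 ± 284 in EpiLCs, 1558 ± 119.4 in XGFP+ cells and 1716 ± 188 in XGFP- PGCLCs. Atp5b went from 60650.1 ± 3205 in XGFP+ to 49342 ± 1729 in XGFP- PGCLCs (−0.30 ± 0.05 (SE, limma adjusted p = 8.37e-05)).

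The c subunit of the rotor ring is encoded by 3 genes with the same mature protein, and they were called in different comparisons. Atp5g3 had 7096, 6683, 7862 and 7861 normalized counts in ESCs, 6656, 6613, 6514 and 6721 in EpiLCs, 4528, 4741, 3834 and 4196 in XGFP+ cells and 3737, 3863, 3007 and 3776 in XGFP- PGCLCs, lower in all PGCLC libraries. Atp5g1 had 4611, 4616, 4520.4 and 4832 in ESCs, 3457, 3387, 3499 and 3491 in EpiLCs, 3278, 3312, 2995 and 3121 in XGFP+ cells and 2654, 2680.2, 2541 and 2549.9 in XGFP- PGCLCs, with no overlap between any groups. Atp5g2 was at 2058 ± 248, 2046 ± 32.6, 2244 ± 178 and 2166 ± 199.8 and was called in no comparison. Atp5g3 fell by 0.62 and 0.89 on the log2 scale from EpiLCs to XGFP+ and XGFP- PGCLCs. Atp5g1 fell by 0.43 from ESCs to EpiLCs and by 0.28 from XGFP+ to XGFP- PGCLCs. Whether the 3 genes differ from each other was not tested.

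There are 3 members on the X chromosome, and the study deposited for X-linked genes the share of allelic reads that came from the mus X, the one with truncated Tsix. Over 201 X-linked genes with biallelic reads in ESCs the median share was 0.469 in ESCs, 0.231 in EpiLCs, 0.404 in XGFP+ PGCLCs and 0.0403 in XGFP- PGCLCs. Cox7b (chrX:106015700-106022450, plus strand) had shares of 0.466, 0.423, 0.445 and 0.419 in ESCs, 0.230, 0.148, 0.196 and 0.200 in EpiLCs, 0.426, 0.559, 0.414 and 0.474 in XGFP+ cells and 0.0417, 0.0930, 0.0840 and 0.178 in XGFP- PGCLCs. ESCs and XGFP+ PGCLCs overlapped, and EpiLCs and XGFP- PGCLCs were below both. The exact two-sided permutation test gave p = 0.0286 for EpiLCs against ESCs (difference −0.245), XGFP+ PGCLCs against EpiLCs (0.275) and XGFP- against XGFP+ PGCLCs (−0.369), the smallest p that 4 against 4 libraries allow, and p = 0.0571 for XGFP- PGCLCs against EpiLCs. Adjusted over the 8 tests of this kind the exact p values were 0.0327 and 0.0571. No read numbers come with these shares, so their depth is unknown.

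The total of Cox7b differed between groups in both its mus and its cas part. Its normalized counts were 13628, 12508, 11472 and 11639 in ESCs, 7249, 5925, 5758 and 5882 in EpiLCs, 8578, 8755, 7076 and 7877 in XGFP+ cells and 4642, 5169, 4074 and 5067 in XGFP- PGCLCs. ESCs were highest and XGFP- PGCLCs lowest, while EpiLCs and XGFP+ PGCLCs overlapped. The change was −0.99 ± 0.09 (SE, limma adjusted p = 1.39e-08) in EpiLCs against ESCs and −0.77 ± 0.09 (SE, limma adjusted p = 1.53e-06) in XGFP- against XGFP+ PGCLCs, and both calls were kept whichever library was left out. The calls of XGFP+ (0.38) and XGFP- PGCLCs (−0.39) against EpiLCs were lost, the first without EpiLC library 2, 3 or 4 or XGFP+ library 1, 2 or 4 and the second without EpiLC library 1, 2 or 4 or XGFP- library 1 or 3, with adjusted p values of up to 0.00429 and 0.00363. Multiplying each count by its share splits it into a mus part of 5408 ± 650, 1212 ± 332, 3804 ± 813 and 479 ± 304 in ESCs, EpiLCs, XGFP+ and XGFP- PGCLCs and a cas part with means of 6904, 4992, 4268 and 4259. The cas part was thus about equal in both PGCLC groups, and the difference between them lay in the mus part. From ESCs to EpiLCs both parts fell, and the cas part did so without overlap (6362 to 7278 in ESCs and 4630 to 5580 in EpiLCs).

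Ndufb11 (chrX:20615326-20617619, minus strand), an accessory subunit of complex I, kept a high mus share in every group. Shares were 0.509, 0.506, 0.508 and 0.518 in ESCs, 0.449, 0.445, 0.433 and 0.409 in EpiLCs, 0.484, 0.508, 0.460 and 0.484 in XGFP+ cells and 0.359, 0.380, 0.359 and 0.393 in XGFP- PGCLCs. XGFP- PGCLCs were below all other libraries, and the exact two-sided permutation p was 0.0286 in all 4 comparisons (0.0327 adjusted over 8 tests). The normalized count was 2879.9 ± 312, 2461 ± 143.4, 2531 ± 111.6 and 2959 ± 237 and was called in no comparison. Split by share as for Cox7b, its mus part averaged 1469, 1068, 1226 and 1104 in ESCs, EpiLCs, XGFP+ and XGFP- PGCLCs. Its cas part averaged 1411, 1393, 1305 and 1855 in the same order. Between the PGCLC groups the cas part was higher in XGFP- cells without overlap (1248 to 1375 in XGFP+ and 1696 to 1988 in XGFP- PGCLCs). The mus part means differed less there, and these parts were not tested. Ndufa1 (chrX:37187588-37191163, minus strand), a small subunit needed to assemble complex I, is listed with a share of 0 in all 16 libraries, ESCs included, and this share was not tested. Its normalized count was 1882, 1808, 1674 and 1638 in ESCs, 1556, 1407, 1532 and 1491 in EpiLCs, 1037, 1000.0, 798 and 841 in XGFP+ cells and 653, 675, 617 and 567 in XGFP- PGCLCs. The groups followed each other downwards in that order without overlap, and Ndufa1 fell by 0.71 and 1.254 on the log2 scale from EpiLCs to XGFP+ and XGFP- PGCLCs, and by 0.54 from XGFP+ to XGFP- PGCLCs (limma adjusted p = 3.71e-05).

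**Figure D4:**
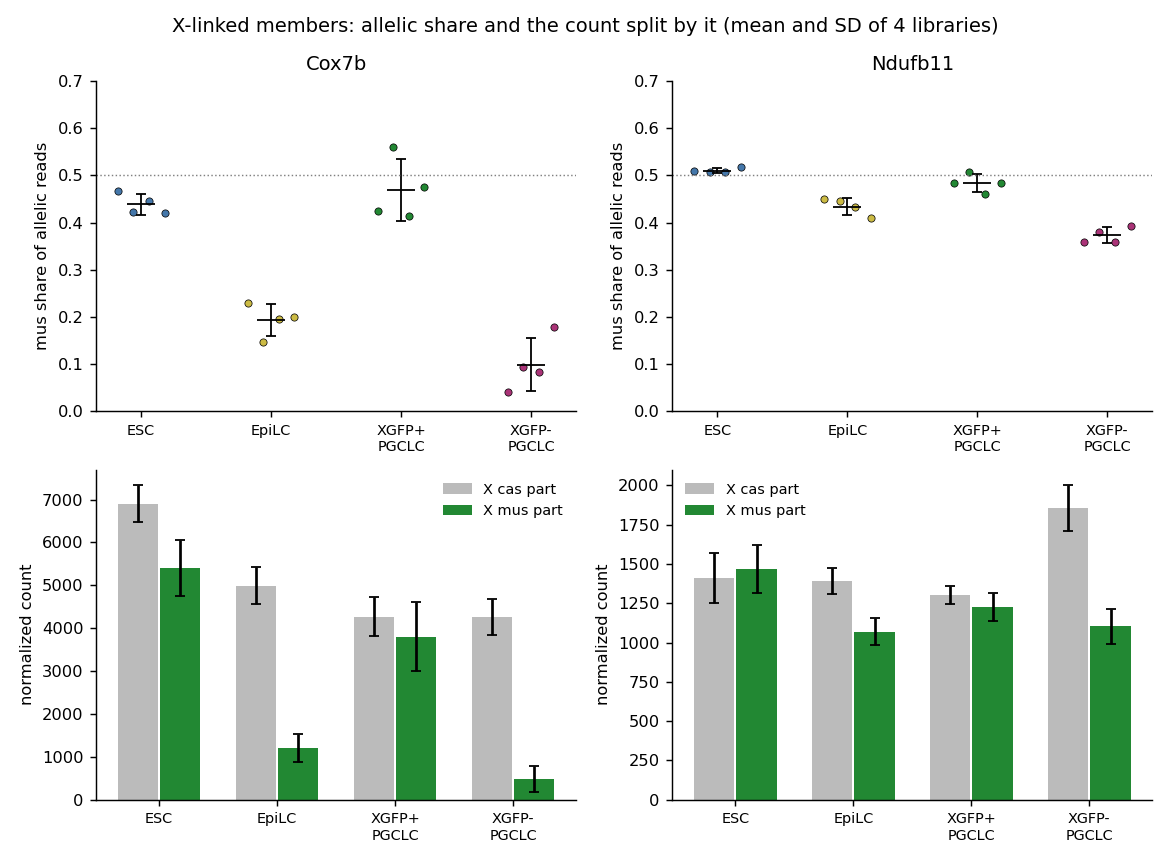
Mus share of allelic reads (top, a fraction) and normalized count split by that share (bottom) for the X-linked members Cox7b and Ndufb11. Points are libraries with mean and SD of 4, and bars start at 0 with SD. The mus part of Cox7b is 479 in XGFP- against 3804 in XGFP+ PGCLCs at a similar cas part, whereas Ndufb11 keeps a mus share above 0.35 in every library.

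Members on chromosome 13, for which shares were deposited as an autosomal control, had shares that differed less between groups than that of Cox7b. Over 244 genes of that chromosome the median share was 0.499, 0.496, 0.504 and 0.498 in ESCs, EpiLCs, XGFP+ and XGFP- PGCLCs. Uqcrb had mean shares of 0.495, 0.465, 0.461 and 0.461, Uqcrfs1 0.493, 0.512, 0.502 and 0.483, and Ndufs6, an accessory subunit, 0.541, 0.524, 0.553 and 0.520. The assembly factor Ndufaf2 was above 0.57 in every library, with means of 0.604, 0.625, 0.641 and 0.653. Cox7c, a small subunit of complex IV, was below 0.46 in every library, with means of 0.358, 0.437, 0.393 and 0.421.

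Cells from rOvaries entered the sums if they had 4000 genes or more, 10000 reads or more and no more than 5% mitochondrial reads. The labels used here give 94 constitutive cells, fewer than the study's text states, and the others were not analysed here. The filter kept 88 of them, which is 93.6%, and kept 86.8% of XGFPhigh, 88.9% of XGFPintermediate and 88.97% of XGFPlow cells and all 24 ESCs. Cells of one sort are not replicates, so no test was made and intervals cover counting error only. The 84 members of both tables took 31823 RPM (reads scaled to 1000000 per sort) in constitutive cells (95% exact Poisson interval 31761 to 31885), 33222 (33183 to 33261) in XGFPhigh, 36346 (36305 to 36387) in XGFPintermediate and 35405 (35363 to 35446) in XGFPlow cells, and 36635 in ESCs. Median reads per cell were 354149 in constitutive cells and 636623, 645474 and 640902 in the other sorts. All constitutive cells were sequenced in lane 2 and all but 14, 16 and 15 of the others in lane 3, so the pooled comparison with constitutive cells crosses lanes. Against constitutive cells the pooled sums were 1.04, 1.14 and 1.11 in XGFPhigh, XGFPintermediate and XGFPlow cells, and with cells of lane 2 alone they were 1.35, 1.41 and 1.47. The 10 empty wells held 12 member reads among 265 reads in all.

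In XGFPhigh, XGFPintermediate and XGFPlow cells the summed level was higher in lane 2 than in lane 3. Constitutive cells, all in lane 2, took 31823 RPM, near XGFPhigh cells of lane 3. In lane 2, 14 XGFPhigh cells held 12.04 M reads and 88 constitutive cells 31.4 M, so depth per cell differed within that lane. The part of lane and depth in the differences between sorts was not tested beyond the values given here. Within lane 2 the members took 43053 RPM in XGFPhigh, 44801 in XGFPintermediate and 46833 in XGFPlow cells, and in lane 3 they took 31546, 34750 and 33713. Relative to XGFPhigh, XGFPintermediate cells stood at 1.04 in lane 2 and 1.10 in lane 3, and XGFPlow cells at 1.09 and 1.07. In lane 3 31 of 81 members with enough reads were over 25% higher in XGFPintermediate than in XGFPhigh cells, where 38.7% of all genes were, and 8 were below 0.8 times, where 18.4% of all genes were. For XGFPlow cells these were 24 higher (33.8% of all genes) and 6 lower (15.1% of all genes). In lane 2, 12 of 74 were higher in XGFPintermediate cells (16.9% of all genes) and 8 lower (22.7% of all genes), and 20 of 73 higher in XGFPlow cells (23.9% of all genes) and 5 lower (19.7% of all genes). Against the constitutive cells, 1 of 80 members was past that fold upwards in XGFPhigh cells (6.45% of all genes) and 0 downwards (15.5% of all genes), while 37 of 80 members were over 25% higher in XGFPintermediate cells (27.5% of all genes) and 6 lower (24.5% of all genes), and 29 were higher in XGFPlow cells (24.8% of all genes) and 3 lower (19.5% of all genes). These counts cross the lanes. With cells of lane 2 alone, 64, 58 and 59 of the same 80 members were over 25% higher than in constitutive cells in XGFPhigh, XGFPintermediate and XGFPlow cells (19.5%, 22.1% and 26.2% of all genes) and 3, 4 and 5 were lower (46.2%, 43.5% and 39.1% of all genes). The median ratio of members was then 1.51, 1.63 and 1.66, where it had been 1.06, 1.22 and 1.162 over both lanes, and 20, 13 and 12 members changed to the other side of 1. Over all genes the median was 0.835, 0.871 and 0.914 in lane 2, and 0.982, 1.03 and 1.04 over both lanes. Genes were chosen by their reads over both lanes, so some may have few reads in lane 2.

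Several members stood on the same side of XGFPhigh cells in both lanes. Cox7b was lower than in XGFPhigh cells, at a ratio of 0.506 in lane 3 and 0.670 in lane 2 for XGFPintermediate cells and 0.571 and 0.570 for XGFPlow cells. Cox8a stood at 0.544 and 0.695 in XGFPintermediate and 0.758 and 0.814 in XGFPlow cells. Ndufaf2, an assembly factor of complex I, had ratios of 0.648 and 0.612 in XGFPintermediate and 0.564 and 0.353 in XGFPlow cells. All 3 genes were thus below XGFPhigh cells in both lanes. Cox6a1 had ratios of 1.51 and 1.49 in XGFPintermediate and 1.56 and 1.69 in XGFPlow cells, and Cox4i1 had 1.44 and 1.24 and then 1.54 and 1.43. Ndufs1 stood at 2.02 in lane 3 but 1.10 in lane 2 for XGFPintermediate cells, and Ndufa1 at 1.62 and 0.634, so that the lanes differed for these members.

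**Figure D5:**
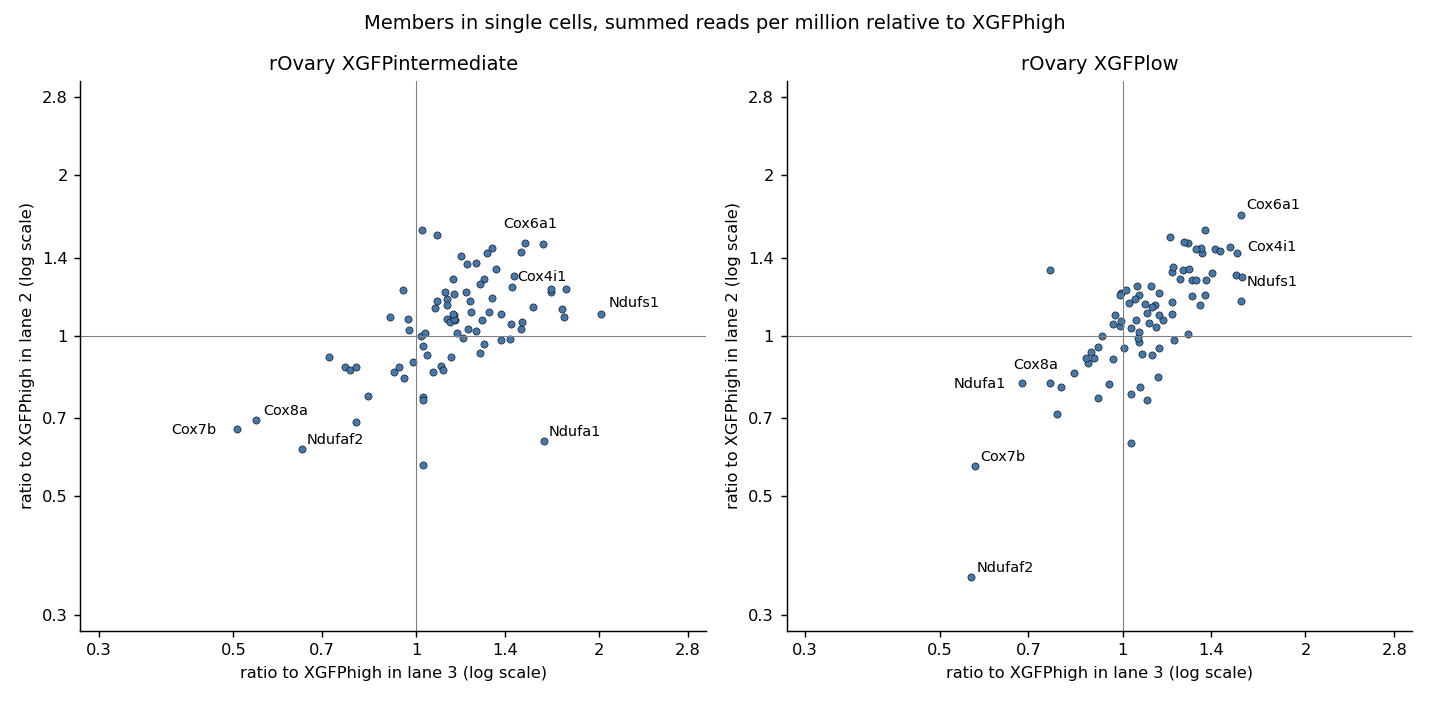
Ratio of summed RPM to XGFPhigh cells for members with at least 200 reads in each lane, in XGFPintermediate (left) and XGFPlow cells (right). Each point is a member, the horizontal axis is lane 3, the vertical axis lane 2, both on a log scale. Cox7b lies at 0.506 and 0.670 in XGFPintermediate cells, Cox6a1 lies above 1 on both axes, and Ndufa1 changes side between the lanes in XGFPintermediate cells.

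Paralogs of complex IV subunits differed between the sorts in how many cells had a read. Cox7b2 had at least 1 read in 60.2% of constitutive, 53.6% of XGFPhigh, 17.97% of XGFPintermediate and 6.61% of XGFPlow cells, and in 5 of 24 ESCs. Its summed level was 26.2, 19.4, 6.72 and 3.50 RPM in these sorts and 2.23 in ESCs. In lane 2, the lane of the constitutive cells, it was 41.3 RPM in XGFPhigh, 9.54 in XGFPintermediate and 10.6 in XGFPlow cells, so that XGFPhigh cells were above constitutive cells there, and in lane 3 it was 15.7, 6.19 and 2.45. Cox8c, the testis-type form of Cox8a, was found in 12.5%, 18.4%, 39.1% and 31.4% of these cells and in 2 of 24 ESCs. In XGFPhigh, XGFPintermediate and XGFPlow cells its summed level was 4.40, 4.55 and 9.30 RPM in lane 2. In lane 3 it was 2.48, 9.52 and 5.31 RPM, so the lanes ranked XGFPintermediate and XGFPlow cells differently. Cox6a2, the muscle form of Cox6a1, was found in 6.82% and 16.8% of constitutive and XGFPhigh cells, in 0 XGFPintermediate cells (which allows a share of up to 2.34% for cells with a read, by counting error only and not for cells that express the gene) and in 3.31% of XGFPlow cells. In XGFPhigh cells its summed level was 6.23 RPM in all cells and 0.498 RPM in those of lane 2 alone. Cox7a1 was at 44.7, 42.7, 52.004 and 51.5 RPM in the rOvary sorts and at 10.6 in ESCs, and Cox6b2 at 47.5, 50.8, 72.3 and 52.8 and at 47.4. In lane 2 alone the values of XGFPhigh, XGFPintermediate and XGFPlow cells were 71.7, 110.8 and 72.2 RPM for Cox7a1 and 80.3, 103.96 and 92.4 RPM for Cox6b2, each above the constitutive cells of that lane, and in lane 3 they were 37.8, 40.9 and 48.4 RPM and 45.8, 66.3 and 46.97 RPM.

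The deposited mus shares of single cells were also lower for Cox7b than for Ndufb11. The mean mus share of Cox7b over cells with a value was 0.410 in constitutive, 0.424 in XGFPhigh, 0.356 in XGFPintermediate and 0.216 in XGFPlow cells. That of Ndufb11 was 0.499, 0.505, 0.460 and 0.431. The median over all 219 X-linked genes of the table was 0.476, 0.471, 0.356 and 0.254.

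The rest of the pathway was described through lists of genes that the symbol rule leaves out. In EpiLCs against ESCs, XGFP+ and XGFP- PGCLCs against EpiLCs and XGFP- against XGFP+ PGCLCs, 24.9%, 27.8%, 29.9% and 11.3% of all genes were called higher and 22.9%, 29.5%, 31.9% and 12.5% lower, and the counts of each list are given in this order to be set against these shares. The 13 subunits encoded in mitochondrial DNA had higher levels in PGCLCs than in EpiLCs for most members. Of these, 0 rose and 3 fell in EpiLCs against ESCs, 11 rose and 0 fell in XGFP+ PGCLCs and 7 rose and 0 fell in XGFP- PGCLCs against EpiLCs, and 0 rose and 2 fell between the PGCLC groups. Their median log2 fold change was 1.28 in XGFP+ cells and 0.81 in XGFP- PGCLCs, against −0.13 and −0.13 for the nuclear members. mt-Nd4, a core subunit of complex I, had 8502, 7009, 5738 and 5869 normalized counts in ESCs, 6030.2, 5912, 4989.6 and 4262 in EpiLCs, 14774, 20111, 11198 and 15979 in XGFP+ cells and 12641, 11747, 9388 and 9495 in XGFP- PGCLCs. All PGCLC libraries were above all ESC and EpiLC libraries, with log2 fold changes against EpiLCs of 1.53 (limma adjusted p = 8.01e-08) and 1.03 (limma adjusted p = 1.07e-05).

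The mitochondrial ribosome, which translates those 13 transcripts and is made of nuclear-encoded proteins, had 76 genes tested. Of these 18 rose and 7 fell in EpiLCs against ESCs (24.9% and 22.9% of all genes), 3 rose and 41 fell in XGFP+ PGCLCs (27.8% and 29.5% of all genes), and 5 rose and 47 fell in XGFP- PGCLCs (29.9% and 31.9% of all genes), with median log2 fold changes of 0.05, −0.32 and −0.38. Mrpl18 fell from 3971 ± 287 in EpiLCs to 1625 ± 60.7 in XGFP+ cells and 1660.1 ± 93.3 in XGFP- PGCLCs, while Mrpl23 rose from 633 ± 53.2 to 1149 ± 90.2 and 1811 ± 142.4. Among 35 assembly factors outside the rule, 7, 6, 12 and 3 rose and 7, 15, 9 and 2 fell in the 4 comparisons. Ecsit, a complex I assembly factor, was at 863 ± 75.5, 1369 ± 98.5, 556 ± 28.8 and 324 ± 8.74 in ESCs, EpiLCs, XGFP+ and XGFP- PGCLCs, and Cox10, which makes the heme of complex IV, at 812 ± 56.01, 1252 ± 48.7, 517 ± 45.7 and 461 ± 31.4. Both fell from EpiLCs to both PGCLC groups, Ecsit by 1.30 and 2.07 and Cox10 by 1.28 and 1.44 on the log2 scale. Others rose over EpiLCs, Sdhaf4 by 0.83 in XGFP+ and 1.36 in XGFP- PGCLCs, Cox18 by 0.81 in XGFP+ and Cox17 by 1.08 in XGFP- PGCLCs.

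Of 17 regulators of nuclear and mitochondrial transcription tested, 2, 4, 5 and 1 rose (24.9%, 27.8%, 29.9% and 11.3% of all genes) and 1, 7, 7 and 1 fell (22.9%, 29.5%, 31.9% and 12.5% of all genes). Tfam, which packages mitochondrial DNA and takes part in its transcription, had 5076, 4689, 4900.2 and 5042 normalized counts in EpiLCs. It had 3205, 3220.4, 3169 and 3046 in XGFP+ cells and 3085, 3206, 3082 and 3151 in XGFP- PGCLCs. This was a decrease of 0.64 and 0.65 on the log2 scale. Polg, the polymerase that copies mitochondrial DNA, rose from 3552 ± 251 to 5578 ± 483 and 6112 ± 316. Esrra, an orphan receptor that acts on many of these genes, fell from 631 ± 22.5 to 426 ± 28.7 and 321 ± 15.3.

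Among 11 carriers of electrons and nucleotides 2, 4, 4 and 0 rose and 3, 3, 6 and 3 fell (24.9%, 27.8%, 29.9% and 11.3% of all genes were higher and 22.9%, 29.5%, 31.9% and 12.5% lower). Slc25a5, the X-linked exchanger of ADP and ATP, had 29975, 28719.7, 23305 and 23887 normalized counts in XGFP+ cells and 11128, 10540.1, 10584 and 10971 in XGFP- PGCLCs, a log2 fold change of −1.28 (limma adjusted p = 2.07e-10). Its autosomal paralog Slc25a4 had 18733 ± 1163 in ESCs, 9407 ± 764 in EpiLCs, 21718 ± 2136 in XGFP+ cells and 18171 ± 1600.2 in XGFP- PGCLCs, and was lowest in EpiLCs. Cycs, the somatic cytochrome c, fell from 2893 ± 218 in EpiLCs to 1602 ± 50.5 and 1606 ± 53.1 in XGFP+ cells and XGFP- PGCLCs. In the citric acid cycle and pyruvate dehydrogenase, 1, 6, 5 and 0 of 21 genes rose and 7, 6, 7 and 7 fell. In both PGCLC groups against EpiLCs these counts lie near the shares of all genes. Pdk4, a kinase that switches pyruvate dehydrogenase off, rose from 88.1 ± 19.3 in EpiLCs to 442 ± 83.5 and 519 ± 72.8 in XGFP+ cells and XGFP- PGCLCs, and Pdha1, the X-linked subunit of that enzyme, was at 11988 ± 746 in XGFP+ cells and 7777 ± 65.5 in XGFP- PGCLCs.

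Ndufa4l2 is known as induced by low oxygen but was not in the list of hypoxia-induced genes. Of 10 listed genes tested, 1, 2, 2 and 1 were higher in the 4 comparisons (24.9%, 27.8%, 29.9% and 11.3% of all genes). In the same order 2, 2, 2 and 0 were lower (22.9%, 29.5%, 31.9% and 12.5% of all genes). Ldha, which makes lactate from pyruvate, had 47804, 49846, 37322 and 47958 normalized counts in EpiLCs, 7545, 9526, 2353 and 7876 in XGFP+ cells and 6518, 8154, 1729 and 7997 in XGFP- PGCLCs. It was lower in all PGCLC libraries, and library 3 was the lowest of each PGCLC group for both Ldha and Ndufa4l2. Vegfa rose from 528 ± 57.9 in EpiLCs to 2633 ± 183 and 3385 ± 318 in XGFP+ cells and XGFP- PGCLCs.

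Markers were checked against the labels of the bulk groups. Fgf5, an epiblast marker, had a mean of 3551 normalized counts in EpiLCs and 9.73 in ESCs, and Nanog, a pluripotency factor, 31563 in ESCs and 3690 in EpiLCs. In XGFP+ PGCLCs the ESC markers Esrrb, Tfcp2l1, Zfp42, Nanog and Klf4 had means of 16195, 15778, 15045, 12047 and 315, each below ESCs. All 6 early germ cell markers were higher in both PGCLC groups than in EpiLCs by their means. Their ESC means were 3368 for Prdm14, 2331 for Tfap2c, 2327 for Dppa3, 480 for Prdm1, 256 for Dnd1 and 66.2 for Nanos3. Prdm14 in ESCs was thus near its XGFP+ level. Between the PGCLC groups, Dnd1 (2366 in XGFP+ cells and 3624 in XGFP- PGCLCs) and the transgene-driven Prdm1 (4013 and 6959), Tfap2c (4799 and 5979) and Prdm14 (3411 and 4291) had the higher mean in XGFP- cells, and Nanos3 (608 and 382) and Dppa3 (9728 and 5197) in XGFP+ cells. Of 3 later germ cell markers, Dazl had 243 ± 61.3 in EpiLCs, 4792 ± 2364 in XGFP+ cells and 348 ± 312 in XGFP- PGCLCs. The other markers had lower means in both PGCLC groups than in EpiLCs. Ddx4 had 532 in EpiLCs, 461 in XGFP+ cells and 224 in XGFP- PGCLCs, and Sycp3 had 887, 534 and 129. Of 6 markers of gonadal somatic cells, Nr5a1, Foxl2 and Emx2 are not among the genes of the bulk table used here. Group means ran from 1.13 to 125 for Wt1, from 3.62 to 89.6 for Gata4 and from 7.74 to 228 for Amhr2. Of the mesoderm markers, T ranged from 452 to 2729 in EpiLCs and reached at most 11.3 in PGCLCs, Mixl1 had means of 22.7, 83.03, 14.1 and 3.96 in ESCs, EpiLCs, XGFP+ and XGFP- PGCLCs, and Kdr 86.98, 8.27, 16.3 and 4.92, highest in ESCs. Hand1 is not among the genes of the bulk table used here. The part of these markers in the values of members was not tested.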

How the data were processed

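Bulk libraries were made by the authors with a stranded total RNA kit, aligned with STAR to mm10 with strain variants masked, counted with HTSeq 0.6.1 and deposited as counts divided by DESeq2 (1.16) size factors, a signal that is not whole counts. Each value divided by its library's step came within 0.01 of a whole read (100.0% of values). The deposited allelic ratio is the fraction of allelic reads from the mus X or mus chromosome 13. Single-cell counts were deposited as reads per gene and cell, and were summed per sort.

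Genes with a mean above 10 were fitted with limma 3.58.1 (R 4.3.3) on log2(value + 1), all 16 libraries in 1 fit. Of 200 genes with a mean above 100 that were changed 2-fold in simulated independent EpiLC and ESC libraries of 16281 genes, 89.5% were recovered. Smaller changes, as most called members had, were not simulated. edgeR 4.0.16 and DESeq2 1.42.0 on recovered reads, other added counts, the compared groups alone, a replicate block and leaving out each library served as alternatives. Same-numbered XGFP+ and XGFP- libraries deviated together (r = 0.253, 0.135, 0.2 and 0.307), which points to pairs by the data, not by the labels. The main fit and the permutation tests did not use these pairs, and only the replicate block did. Intervals cover counting error only. The members and lists were chosen with earlier results of these data known. Members named with values were those with the largest called changes per comparison (mean above 100, no overlap between groups), paralog pairs, complex II, X-linked and chromosome 13 members, the most abundant member of each complex and the most different members in single cells, with up to 2 called genes a direction from each related list. Genes named outside this rule were chosen after their values were seen. Columns of per-sample values that match no sample (4) were not used.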

Additional observations from a re-analysis of the deposited data

Results flagged for a closer look

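In 9 of 240 groups of 4 libraries that were looked at, 1 library stood apart by Dixon's criterion, where chance gives about 1 in 20. In EpiLCs, library 1 was high for Cox7b (7249 normalized counts, others 5758 to 5925), for Cox5a (4250, others 3749 to 3797), for the summed accessory subunits of complex I (1452 CPM, others 1344 to 1354) and for summed complex IV (1799 CPM, others 1611 to 1620). EpiLC library 2 was low for Atp5f1 (9851 normalized counts, others 10682 to 10772). In XGFP- PGCLCs, library 3 was low for Atp5f1 (5077, others 5298 to 5323), Atp5g3 (3007, others 3737 to 3863) and Cox6c (4043, others 4726 to 4765). The mus share of Uqcrfs1 was 0.56 in XGFP+ library 1 and 0.481 to 0.485 in the others.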

How the results depend on the processing

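No called change of a named member in bulk and no summed level reversed its direction under the alternatives run, whereas 20, 13 and 12 of 80 members changed to the other side of constitutive cells in XGFPhigh, XGFPintermediate and XGFPlow cells when lane 2 was taken alone. With the compared groups alone, 1 member was called higher in EpiLCs than in ESCs in place of 3, and 5 were called lower in XGFP- than in XGFP+ PGCLCs in place of 9, with fewer samples in the fit. Leaving out 1 library gave 2 to 3 higher and 23 to 29 lower members in EpiLCs against ESCs, 8 to 13 and 27 to 32 in XGFP+ PGCLCs against EpiLCs, 10 to 13 and 34 to 37 in XGFP- PGCLCs against EpiLCs, and 1 to 2 and 7 to 9 in XGFP- against XGFP+ PGCLCs. The replicate block gave 4 higher and 36 lower, 15 and 32, 15 and 40, and 3 and 9 in the same order, so it moved no count by over 1.5 times. Same-numbered libraries of the other pairs of groups had r from −0.0105 to 0.16. The values for EpiLCs and XGFP+ PGCLCs were 0.16 in library 1 and 0.124 in library 2. Whether libraries of these other groups are paired as well was not tested. The summed level relative to ESCs was 0.859 in EpiLCs on the size factor scale, and 0.826 in XGFP+ and 0.771 in XGFP- PGCLCs without mitochondrially encoded genes. In single cells, the ratio to constitutive cells was 1.353 (lane 2) and 1.030 (mean over cells) in XGFPhigh, 1.146 (every cell), 1.168 (Dazl above 1) and 1.408 (lane 2) in XGFPintermediate, and 1.173 (Dazl above 1), 1.472 (lane 2) and 1.125 (mean over cells) in XGFPlow cells. The lanes were compared with XGFPhigh cells after seeing the data, with 1.041 and 1.088 in lane 2 and 1.102 and 1.069 in lane 3 for XGFPintermediate and XGFPlow cells, and the sums without mitochondrially encoded genes, on the size factor scale and without 1 library were also added then. Of 78 calls of named members, 13 were lost in at least 1 fit without a library and 65 were kept in all. These fits were not run on the related lists. The cause of these shifts was not tested. Depth limits Cox7b2 and Ndufa4l2, with libraries at or near 0.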
